A study of Mus musculus with 8 samples.

Results

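Pro-B cells were compared with pre-pro-B cells of mouse bone marrow by RNA sequencing, with both genotypes of the study in a single comparison. All libraries of the series that were analysed entered it, 7 of the 8 labelled samples, and they were chosen by their labels and not by any measured value. The pre-pro-B group held 2 wild type (WT) libraries and 2 libraries from lactoferrin knockout (Lf-/-) mice. The pro-B group held 1 WT and 2 Lf-/- libraries. A further WT sample of the pro-B group, replicate 2, was not analysed here. All mice were C57BL/6J and untreated, the Lf-/- mice were compared with littermates of the same age, and the labels give no age. The cells were isolated by flow cytometry. In the study's cytometry the pre-pro-B gate took AA4.1+ and B220+ cells without CD24, among other criteria, and pro-B cells were gated as B220+CD43+IgM-. Neither the labels nor the study's methods say how mice were divided among the libraries, or whether pre-pro-B and pro-B libraries with the same number came from the same mouse.

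B cells arise in the bone marrow from lymphoid progenitors. Pre-pro-B cells already carry B220, and the transcription factors Tcf3, Ebf1 and Pax5 then turn on the signaling chains Cd79a and Cd79b and the surrogate light chain genes Vpreb1 and Igll1. During the pro-B stage the recombinase made by Rag1 and Rag2 joins variable, diversity and joining segments of the immunoglobulin heavy chain locus, and light chain loci are rearranged later. Plasma cells, the end stage of the same lineage, also live in bone marrow and make very large amounts of immunoglobulin messenger RNA with the joining chain Jchain, which links IgA and IgM units.

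The values were FPKM, fragments mapped to a gene scaled by its length and by the library's total, for 52550 genes. They summed to between 694578 and 834693 per library, and the spacing of low values gave 10800000 to 15300000 fragments in 6 libraries. In Lf-/- pre-pro-B replicate 2 the depth could not be read, 12172 genes were above 0 against 19477 to 20250 in the others, and 14 of 2244 genes with at least 10 FPKM in all the other libraries were listed at 0. Its correlation with the other libraries over genes was 0.814 to 0.838, against 0.917 to 0.963 among the rest. The 10793 genes that reached 1 FPKM in 2 or more libraries were tested with limma on log2(FPKM + 1) with stage and genotype as terms. All log2 values below are the pro-B minus pre-pro-B difference on that scale, which understates the change of genes near 1 FPKM, and folds were computed from it. FPKM are shares of a library, so fewer cells of a type and less of its RNA per cell cannot be told apart.

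The stage labels were first checked against the genes behind the gates and the B cell program. Of the gate genes given here none, and no B lineage transcription factor, passed as higher in the libraries labelled pro-B. Cd24a, whose protein the pre-pro-B gate leaves out, was at 292 to 471 FPKM in pre-pro-B and 197 to 513 FPKM in pro-B libraries. Cd93, which encodes AA4.1, differed by -0.79 (SE 0.40), Ptprc, whose B220 form is in both gates, by -0.15, and Spn, which encodes CD43, by -0.04. Ighm, the IgM heavy chain gene, whose protein the pro-B gate leaves out, was lower at an unadjusted p under 0.05 in limma (-1.52, SE 0.60). The groups overlapped, and it stayed under that threshold in all but 3 of the 7 fits that left out 1 library. Of the 12 B lineage transcription factors all 12 had negative differences and none passed at an unadjusted p of 0.05, with a median of -0.39, a difference of -0.42 for Pax5, -0.36 for Ebf1, -0.21 for Tcf3 and -0.48 for Ikzf1. Genes of other cells were abundant in every library. The mature neutrophil list held 14.9% to 32.0% of all FPKM, the alarmin S100a8 alone 7.61% to 18.0%, the erythroid list 1.96% to 15.3%, and the 12 B lineage factors 0.00351% to 0.0244%. The 2 groups are therefore called by their labels, pre-pro-B and pro-B libraries, and no stage was read from them. Lactoferrin itself, Ltf, was at 2143 to 2731 FPKM in the 3 WT libraries and 88.2 to 168 FPKM in the 4 Lf-/- libraries, and its stage difference was 0.14 (SE 0.33).

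Across all genes 1 gene (0.00927%) had a Benjamini-Hochberg adjusted p under 0.05 in limma, and 260 genes (2.41%) had an unadjusted p under 0.05, a smaller share than that threshold admits when no gene differs. Of these, 135 (1.25%) were higher and 125 (1.16%) lower in pro-B libraries. Below, "passed" means an unadjusted p under 0.05 in limma, and the adjusted p of the 259 genes that passed in that way alone was 0.213 to 0.947. Of the 54 named genes and list members that passed, 25 passed in each of the 7 fits that left out 1 library and 29 did not. The groups did not overlap at all for 102 genes lower (0.945%) and 130 genes higher (1.2%) in pro-B libraries. Immunoglobulin genes were 66 of the 125 lower genes and 1 of the 135 higher ones.

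**Figure D1:**
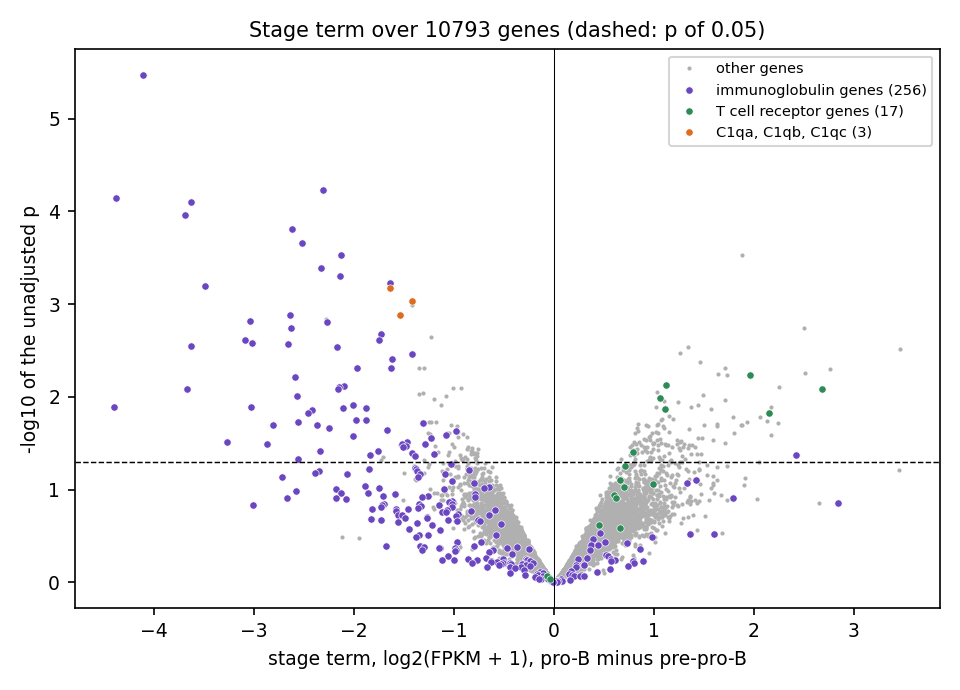
Stage difference of each of the 10793 genes tested (x axis, pro-B minus pre-pro-B, log2 of FPKM + 1) against its unadjusted p from limma (y axis, minus log10), with immunoglobulin, T cell receptor and C1q genes colored and a dashed line at a p of 0.05. Immunoglobulin genes lie mostly left of 0, where they make up 66 of the 125 genes that passed.

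The immunoglobulin genes carried the clearest difference. They made up 8.36% to 18.2% of all FPKM in the 4 pre-pro-B libraries and 2.91% to 5.27% in the 3 pro-B libraries, and the groups did not overlap. The summed level of the variable segments was 42080 and 49211 FPKM in WT and 71721 and 25914 FPKM in Lf-/- pre-pro-B libraries. It was 9860 FPKM in WT pro-B and 7917 and 14529 FPKM in Lf-/- pro-B libraries, so every pro-B library lay below every pre-pro-B library in both genotypes.

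Because variable segments are close copies of each other, the 3 with the largest negative differences among those without overlap between the groups are shown with their nearest relative among the annotated segments. Each line gives 120 bases of the germline segment on its coding strand from GENCODE M21 on GRCm38, and capitals mark bases that differ between the members of a pair. The stretch shown is the one of that length with the most differences in the last exon, so each pair is more alike over its full alignment. Ighv1-9 (chr12:114583707-114583826, minus strand) and Ighv1-77 (chr12:115862005-115862124, minus strand) differ at 16 of these bases, Ighv5-4 (chr12:113597544-113597663, minus strand) and Ighv5-6 (chr12:113625604-113625723, minus strand) at 8, and Igkv3-4 (chr6:70672078-70672197, plus strand) and Igkv3-3 (chr6:70687235-70687354, plus strand) at 14.
Ighv1-9: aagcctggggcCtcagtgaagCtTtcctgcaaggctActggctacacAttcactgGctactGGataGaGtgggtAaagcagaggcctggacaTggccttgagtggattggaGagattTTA
Ighv1-77: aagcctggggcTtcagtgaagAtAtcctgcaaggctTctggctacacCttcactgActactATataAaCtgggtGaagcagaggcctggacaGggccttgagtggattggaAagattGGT
Ighv5-4: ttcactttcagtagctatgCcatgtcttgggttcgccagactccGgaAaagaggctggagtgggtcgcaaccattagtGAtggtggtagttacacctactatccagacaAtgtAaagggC
Ighv5-6: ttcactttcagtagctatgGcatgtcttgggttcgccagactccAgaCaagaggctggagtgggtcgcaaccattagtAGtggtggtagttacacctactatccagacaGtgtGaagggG
Igkv3-4: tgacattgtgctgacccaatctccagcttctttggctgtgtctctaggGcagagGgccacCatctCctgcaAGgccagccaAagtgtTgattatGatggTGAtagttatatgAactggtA
Igkv3-3: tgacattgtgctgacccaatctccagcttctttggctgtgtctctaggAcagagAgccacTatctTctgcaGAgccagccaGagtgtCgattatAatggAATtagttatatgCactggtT

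Ighv1-9, a heavy chain variable segment of the J558 family (ENSMUSG00000094694, GRCm38 chr12:114583569-114584002, minus strand), was the gene past the adjusted threshold. It was at 480 and 532 FPKM in WT and 738 and 1271 FPKM in Lf-/- pre-pro-B libraries, against 18.9 FPKM in WT pro-B and 111 and 45.8 FPKM in Lf-/- pro-B libraries. Every pro-B value was below every pre-pro-B value, by a difference of -4.11 (SE 0.40, 95% interval -5.02 to -3.20), or 17.3-fold (limma, adjusted p = 0.0363). The difference was -3.74 in Lf-/- alone and -4.67 in WT alone. Under 14 alternative settings the difference of Ighv1-9 stayed between -4.52 and -3.74, but its adjusted p in limma ranged from 0.00067 to 0.868 and was past the threshold in 5 and not in 9 of them. It was 0.225 after quantile normalization, 0.868 with no filter, 0.134 with a pseudocount of 0.1, 0.204 without the genotype term, and between 0.0555 and 0.284 when WT pre-pro-B replicate 1 or 2, WT pro-B replicate 1, Lf-/- pre-pro-B replicate 1 or Lf-/- pro-B replicate 2 was left out. Its nearest relative Ighv1-77, with 90.9% identity over 351 bases and 32 mismatches, was at 8.45 to 55.7 FPKM in pre-pro-B and 2.02 to 9.63 FPKM in pro-B libraries, a difference of -2.16 (SE 0.64) with overlapping groups.

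Ighv5-4 lay on the same chromosome (chr12:113597446-113597977, minus strand) and was also lower in every pro-B library. Its values were 140, 206, 303 and 2338 FPKM in the pre-pro-B libraries, WT first, and 7.69, 52.5 and 27.1 FPKM in the pro-B libraries, a difference of -4.38 (SE 0.63, adjusted p = 0.213). Ighv5-6, its relative with 95.7% identity, was at 27.3 to 318 FPKM and 21.6 to 107 FPKM (-1.32, SE 0.77). The kappa light chain segment Igkv3-4 (chr6:70671788-70672377, plus strand) was at 829, 282, 1010 and 2654 FPKM against 38.8, 65.1 and 223 FPKM, a difference of -3.69 (SE 0.56, adjusted p = 0.237). Igkv3-3, with 94.2% identity to it, was at 4.83 to 9.70 FPKM in pre-pro-B and 1.13 to 2.20 FPKM in pro-B libraries (-1.64, SE 0.31). Ighv1-19 was at 183 to 768 FPKM and 17.0 to 35.3 FPKM (-3.63, SE 0.53, adjusted p = 0.213), with 96.3% identity to Ighv1-26, which differed by -1.15 (SE 0.73). Of the 200 tested segments that could be aligned, 104 (52.0%) were at least 95% identical to another, so reads can be split between members of a pair and single segments are uncertain.

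**Figure D2:**
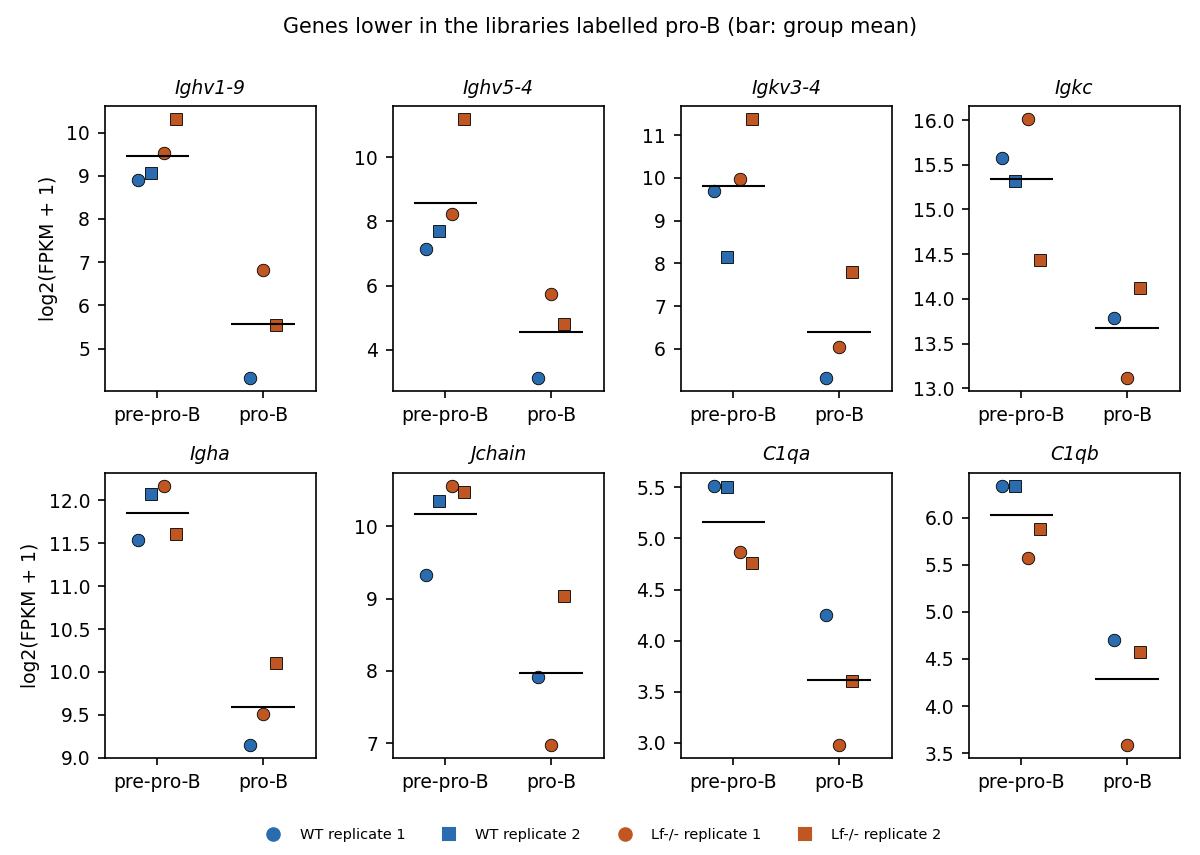
Level in each library (y axis, log2 of FPKM + 1) of 8 genes lower in the pro-B libraries, with genotype by color, replicate by symbol and bars at the group means. In Ighv1-9, Ighv5-4, Igkv3-4, Igkc, Igha, Jchain, C1qa and C1qb each pro-B point lies below each pre-pro-B point.

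The same direction ran through the loci. Of 201 variable segments tested, 165 had negative and 36 positive differences, 49 (24.4%) passed as lower and none as higher, 19 did not overlap, and the median was -1.14, against -0.03 over all genes tested. The heavy chain segments (100 tested, 26 passed as lower, median -1.08) and the kappa segments (97 tested, 22 passed as lower, median -1.31) were alike in this, and 1 of the 3 lambda segments passed. Of 20 diversity and joining segments 6 passed as lower with a median of -0.55, and of 23 variable pseudogenes 6 passed as lower with a median of -0.65. These counts turned on single libraries. Without Lf-/- pre-pro-B replicate 2, in which 61 of the 218 annotated variable segments were at 0, 130 of 201 segments passed as lower and 1 as higher (median -1.98), and 36 genes (0.334%) had an adjusted p under 0.05, 35 of them immunoglobulin genes. Without Lf-/- pre-pro-B replicate 1, the library with the highest immunoglobulin level, 33 (16.4%) passed as lower and 9 (4.48%) as higher (median -0.46), against 13.7% of all genes tested lower and 2.80% higher in that fit. Without Lf-/- pre-pro-B replicate 2 the shares over all genes were 2.26% lower and 1.29% higher.

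The number of segments detected did not separate the groups as the summed level did. Between 60 and 99 heavy chain variable segments reached 1 FPKM in the pre-pro-B libraries and 75 to 84 in the pro-B libraries. For kappa segments the numbers were 72 to 98 and 77 to 91. Both lowest numbers, 60 and 72, were those of Lf-/- pre-pro-B replicate 2, whose depth is unknown. Without it the pre-pro-B ranges were 83 to 99 and 80 to 98, which still overlapped those of the pro-B libraries. The most abundant heavy chain segment took 17.5% of heavy chain variable FPKM in WT pre-pro-B replicate 1 (Ighv1-50), 33.8% in WT replicate 2 (Ighv1-81), 17.3% in Lf-/- replicate 1 (Ighv1-81) and 28.7% in Lf-/- replicate 2 (Ighv5-4). In the pro-B libraries it took 13.4% in WT (Ighv1-81) and 10.9% (Ighv5-17) and 10.7% (Ighv1-81) in Lf-/-. The leading segment thus took a larger share in each pre-pro-B library than in any pro-B library, and it was not the same segment in all of them. For kappa segments the share of the leading segment was 11.1% to 20.2% and 8.30% to 18.2%, and the groups overlapped.

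Of the 12 constant genes tested, which give the antibody class, 8 had negative and 4 positive differences, 5 passed as lower and 1 as higher. Igha, the constant gene of IgA (chr12:113254830-113260236), was at 2978 and 4332 FPKM in WT and 4608 and 3127 FPKM in Lf-/- pre-pro-B libraries and at 567, 728 and 1100 FPKM in the pro-B libraries. All pro-B values lay below all pre-pro-B values, a difference of -2.31 (SE 0.32), or 4.97-fold (adjusted p = 0.213). Igkc, the kappa constant gene, was at 48819, 40807, 66032 and 22236 FPKM against 14164, 8871 and 17871 FPKM, a difference of -1.63 (SE 0.44), or 3.09-fold. Ighg2c (-2.14, SE 0.40), Ighm (-1.52, SE 0.60) and Iglc1 (-1.39, SE 0.59) passed with overlapping groups. Without WT pro-B replicate 1 neither Igkc (-1.61) nor Ighm (-1.005) passed, Ighm did not pass in 3 and Iglc1 in 5 of the 7 fits without a library, and Igha and Ighg2c passed in all 7. Ighg3, an IgG constant gene, was the immunoglobulin gene that passed as higher, from 16.7, 0.535, 11.3 and 0 FPKM to 20.7, 11.6 and 37.8 FPKM (2.42, SE 1.02). It did not pass in 4 of the 7 fits, among them that without Lf-/- pre-pro-B replicate 2, where the difference was 1.45. Igha held 35.6% to 74.6% of heavy chain constant FPKM in pre-pro-B and 35.0% to 46.5% in pro-B libraries, and Ighm 12.9% to 57.7% and 25.5% to 46.1%. These 2 shares overlapped between the groups, while that of Ighg3, 0% to 0.199% and 0.559% to 1.70%, did not.

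Genes that plasma cells use to assemble and export antibody moved in part. Jchain (chr5:88519809-88527891) was at 643 and 1302 FPKM in WT and 1509 and 1418 FPKM in Lf-/- pre-pro-B libraries, and at 240 FPKM in WT pro-B and 125 and 523 FPKM in Lf-/- pro-B libraries. No values overlapped, with a difference of -2.28 (SE 0.50), or 4.84-fold. Sdc1, the plasma cell surface proteoglycan CD138, was low in all libraries, at 1.71 to 6.24 FPKM and 0.605 to 4.04 FPKM (-0.77, SE 0.33), and did not pass in 4 of the 7 fits without a library. Xbp1, the transcription factor of the secretory program, was at 35.8 to 98.4 FPKM and 26.1 to 57.9 FPKM (-0.62, SE 0.44), and Mzb1, a chaperone cofactor of the endoplasmic reticulum, differed by 0.04. Of the 10 plasma cell genes tested 8 had negative differences and 5 passed as lower, Igha, Igkc, Ighg2c, Jchain and Sdc1, with a median of -0.90. The 3 immunoglobulin genes among them make up most of the list's sum, 4.18% to 8.88% of FPKM in pre-pro-B and 1.39% to 2.81% in pro-B libraries. The part of plasma cell RNA in the immunoglobulin result was not tested.

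Of 9 genes of the pre-B cell receptor and of recombination tested, 3 passed as lower and none as higher. Vpreb1, a chain of the surrogate light chain, was at 12.1, 70.0, 62.1 and 33.5 FPKM in the pre-pro-B libraries and 12.7, 351 and 71.7 FPKM in the pro-B libraries (0.61, SE 0.84), and its partner Igll1 differed by 0.81 (SE 0.67). Both were highest in Lf-/- pro-B replicate 1. Dntt, the terminal transferase that adds bases at the joins, differed by -0.10 and Rag1 by -0.51 (SE 0.29). The genes that passed were Cd79b (-1.01, SE 0.30), Cd79a (-0.83, SE 0.34) and Vpreb3 (-0.99, SE 0.43). In all 6 of the 9 had negative differences, with a median of -0.51. In Lf-/- alone 5 were negative and 4 positive, with a median of -0.24. In WT alone all 9 were negative with a median of -1.20, against 80.4% negative and a median of -0.28 over all genes tested. Without WT pro-B replicate 1 none of the 3 passed, at -0.93, -0.45 and -0.61, and Cd79a and Vpreb3 did not pass in 5 of the 7 fits without a library.

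Surface molecules of early B cells were also lower where they passed. Ly6d, which marks lymphoid progenitors bound for the B lineage, was at 447 and 258 FPKM in WT and 2288 and 2872 FPKM in Lf-/- pre-pro-B libraries, against 134 FPKM in WT pro-B and 936 and 899 FPKM in Lf-/- pro-B libraries. Within each genotype pro-B lay below pre-pro-B, at different levels in WT and Lf-/-, and the difference was -1.43 (SE 0.30). Fcrla (-0.96, SE 0.35), Cd38 (-1.05, SE 0.44) and Cd72 (-1.16, SE 0.48) passed as well, so 4 of 12 members passed as lower and none as higher, with a median of -0.45. Cd38 was -0.57 and did not pass without Lf-/- pre-pro-B replicate 2, which left 3 members, and over the 7 fits without a library it did not pass in 5 and Fcrla not in 3, while Ly6d passed in all. The interleukin 7 receptor Il7r, the survival and growth receptor of early B cells, differed by -0.86 (SE 0.38). Bcl2, which protects lymphocytes from apoptosis, was the member of the IL7 receptor and STAT5 list that passed (0.82, SE 0.33, and 0.66 without Lf-/- pre-pro-B replicate 2). It was at 0.265 to 0.672 FPKM in pre-pro-B, 0.703 FPKM in WT pro-B and 2.23 and 2.35 FPKM in Lf-/- pro-B libraries. Bcl2 thus met the filter only through the Lf-/- pro-B libraries, where it was highest, and its difference in WT alone was 0.09. Bcl2 did not pass in 4 of the 7 fits.

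Other B lineage and progenitor lists showed small shifts. In the mature B cell list Ltb, which encodes lymphotoxin beta, passed as higher (1.93, SE 0.67) and the CD20 gene Ms4a1 as lower (-0.80, SE 0.33), and the median of 11 genes was -0.08. Without Lf-/- pre-pro-B replicate 2 Ltb was 1.13, and Ms4a1 was -0.57 and did not pass. Ltb did not pass in 2 and Ms4a1 in 6 of the 7 fits without a library. The chaperone gene H2-DMb2 was the member of the 8 class II genes that passed (0.84, SE 0.31), with a median of 0.12, and without Lf-/- pre-pro-B replicate 2 it was 0.59 and did not pass. None of 9 lymphoid progenitor genes and none of 12 genes of the CXCL12 and CXCR4 axis with ERK and AKT passed, with medians of -0.20 and 0.06, and Cxcr4 differed by -0.60 (SE 0.44).

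The complement genes C1qa, C1qb and C1qc formed a second group that was lower in every pro-B library. They lie side by side on chromosome 4 and encode the chains of C1q, the recognition unit of the classical complement pathway, which is made largely by macrophages. C1qa (chr4:136895917-136898803) was at 44.7 and 44.3 FPKM in WT and 28.1 and 26.1 FPKM in Lf-/- pre-pro-B libraries, and at 18.0 FPKM in WT pro-B and 6.89 and 11.2 FPKM in Lf-/- pro-B libraries. The difference was -1.42 (SE 0.29), or 2.67-fold. C1qb was at 79.7, 80.0, 46.5 and 58.1 FPKM against 25.0, 11.0 and 22.8 FPKM (-1.64, SE 0.32, 3.12-fold). C1qc was at 30.9, 24.5, 20.2 and 28.0 FPKM against 12.3, 4.48 and 7.80 FPKM (-1.54, SE 0.33, 2.91-fold). In all 3 genes no pro-B value reached a pre-pro-B value, the WT and Lf-/- differences had the same sign, and the adjusted p values were 0.514 to 0.788. The monocyte and macrophage list as a whole, with these 3 genes included, had 13 of 16 genes negative and a median of -0.44. Its other members, such as the abundant Ly6c2 (-0.24, SE 0.32), did not pass. Its summed level was 0.110% to 0.285% of FPKM in pre-pro-B and 0.118% to 0.149% in pro-B libraries.

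The RefSeq promoter table held 2 of the 3 genes, C1qb and C1qc, and stretches of 96 bases are shown because the genes moved together. The sequences are from GRCm38.p6, C1qb chr4:136886201-136886296 and C1qc chr4:136893057-136893152, both on the minus strand. Capitals mark a match to GAGGAA on either strand, the core letters bound by the macrophage and B cell factor PU.1.
C1qb: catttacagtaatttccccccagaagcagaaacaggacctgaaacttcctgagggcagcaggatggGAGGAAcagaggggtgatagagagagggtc
C1qc: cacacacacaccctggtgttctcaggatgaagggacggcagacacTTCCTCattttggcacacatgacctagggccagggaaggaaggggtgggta
The match lies 30 bases upstream of the start in C1qb and 193 bases upstream in C1qc. The same letters occur in 23.3% of the 32851 promoters of the table within 250 bases upstream of the start, so such a match is common. Spi1, which encodes PU.1, was at 115 to 193 FPKM and 132 to 169 FPKM, differed by -0.01 (SE 0.29) and did not pass.

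The other large negative differences without overlap were single genes. Aif1, a calcium-binding protein of macrophages, was at 6.99 to 18.0 FPKM in pre-pro-B and 3.36 to 4.23 FPKM in pro-B libraries (-1.35, SE 0.41). The alpha tubulin gene Tuba4a was at 252 to 432 FPKM and 57.4 to 164 FPKM (-1.31, SE 0.39). Bola1, a mitochondrial iron-sulfur protein, was at 2.50, 28.8, 4.20 and 23.9 FPKM in the pre-pro-B libraries and 2.15 to 2.45 FPKM in the pro-B libraries (-1.74, SE 0.76). It was high in the second pre-pro-B library of each genotype and near the pro-B values in the first. Bola1 did not pass in 9 of 14 alternative settings, among them that without Lf-/- pre-pro-B replicate 2, where it was -1.14. Ctxn1 reached 10.4 FPKM in Lf-/- pre-pro-B replicate 2 and at most 1.06 FPKM elsewhere (-1.54, SE 0.61, and -0.74 without that library).

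Genes higher in the pro-B libraries were mostly low in level, and many of them were listed at 0 in 1 pre-pro-B library. Of the 135 that passed as higher, 90 (66.7%) were listed at 0 in Lf-/- pre-pro-B replicate 2, against 1760 (16.3%) of all genes tested and 2 (1.6%) of the 125 lower genes. Differences without that library are given beside the higher genes named. The largest difference belonged to Klk1, a tissue kallikrein (chr7:44225360-44229618), at 12.4 and 14.9 FPKM in WT and 4.81 and 0 FPKM in Lf-/- pre-pro-B libraries and at 30.7 FPKM in WT pro-B and 54.8 and 110 FPKM in Lf-/- pro-B libraries. All pro-B values were the higher ones, by 3.46 (SE 0.86), or 11.0-fold, and by 2.44 without that library. The neighbouring paralog Klk1b27 followed, from 2.83, 2.35, 0.675 and 0 FPKM to 5.47, 11.0 and 19.7 FPKM (2.50, SE 0.57, and 2.04 without that library), though reads of such close copies can be shared. Cd209d, a C-type lectin, was at 0 to 3.28 FPKM and 5.08 to 32.9 FPKM (2.51, SE 0.69, and 1.84 without that library).

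**Figure D3:**
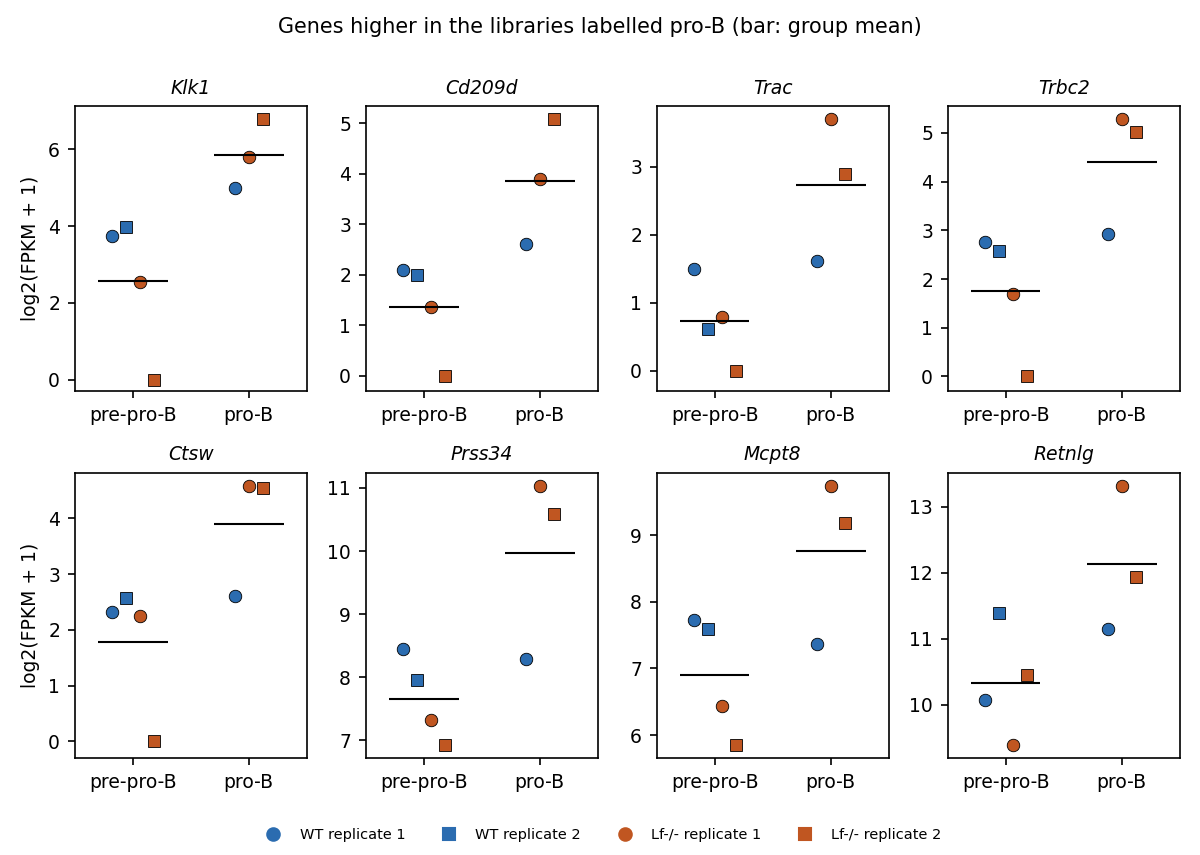
Level in each library (y axis, log2 of FPKM + 1) of 8 genes higher in the pro-B libraries, with genotype by color, replicate by symbol and bars at the group means. Lf-/- pre-pro-B replicate 2 is at 0 for Klk1, Cd209d, Trac, Trbc2 and Ctsw, and both Lf-/- pro-B libraries lie above the WT pro-B library in all 8 genes.

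Klk1 and Cd209d stood in the list of plasmacytoid dendritic cells, the interferon-producing cells that also carry B220. They were the 2 of its 11 tested members that passed, and the median was 0.38. Siglech, which defines the cells, was at 3.94, 7.31, 1.98 and 43.8 FPKM in the pre-pro-B and 7.76, 16.7 and 34.0 FPKM in the pro-B libraries (0.85, SE 0.81), so it was high in both an Lf-/- pre-pro-B library and the Lf-/- pro-B libraries. The summed level of the list was 0.00880% to 0.0655% of FPKM in pre-pro-B and 0.0123% to 0.0594% in pro-B libraries. Its part in the differences of Klk1 and Cd209d was not tested.

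Several T cell receptor genes and the killer cell gene Ctsw passed as higher in the pro-B libraries, and their highest values were in the Lf-/- pro-B libraries. Trbc2, a T cell receptor beta constant gene, was at 5.78, 4.99, 2.25 and 0 FPKM in the pre-pro-B libraries and at 6.55 FPKM in WT pro-B and 38.0 and 31.2 FPKM in Lf-/- pro-B libraries. The WT pro-B library exceeded the highest pre-pro-B value by little, and the difference was 2.68 (SE 0.79, and 1.85 without Lf-/- pre-pro-B replicate 2). The alpha constant gene Trac was at 0 to 1.83 FPKM against 2.06, 12.0 and 6.44 FPKM (1.96, SE 0.55, and 1.53 without it). Cd3g, a signaling chain of the receptor, was at 0 to 1.33 FPKM against 1.93, 6.65 and 5.71 FPKM (1.64, SE 0.45, and 1.24), and Ctsw, a protease of killer cells, at 0 to 4.96 FPKM against 5.07, 23.1 and 22.2 FPKM (2.13, SE 0.74, and 1.24). Ctsw did not pass when either Lf-/- pro-B library was left out. In each of these genes the Lf-/- pro-B libraries were far above all others and the WT pro-B library was at the edge of the pre-pro-B range.

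Of 14 T and NK cell genes tested 13 had positive differences and 5 (35.7%) passed as higher, against 1.25% of all genes tested, with a median of 0.90. Members such as Cd3e met the filter only through the 2 Lf-/- pro-B libraries, where they were highest, so the count is partly selected. With at least 1 FPKM required in every library 6 members remained, 0 passed and the median was 0.43. Of the 5 that passed under the main filter, Trac and Cd3g passed in all 7 fits without a library. Trbc1 did not in 2, Il2rb not in 4 and Ncr1 not in 5. Without Lf-/- pre-pro-B replicate 1 the median of the list was 0.36. In Lf-/- alone all 14 were higher (median 1.26), against a median of 0.15 over all genes tested. In Lf-/- pre-pro-B replicate 2, however, 7 of the 15 listed genes were at 0. In WT 10 of 14 were lower (median -0.15), against 80.4% lower and a median of -0.28 over all genes tested. Of 270 T cell receptor segments and constant genes 17 met the filter, and 7 of these passed as higher. Summed over the 270, the level was 158 FPKM for Lf-/- pro-B replicate 1 and 113 FPKM for replicate 2. The other libraries had 6.97 to 31.0 FPKM. High values in those 2 libraries suffice to meet the filter, so the count of 7 can be partly selected too and was not compared with the 1.25% of all genes. The defining marker Cd3e was at 0.180 to 0.562 FPKM in pre-pro-B and 0.254, 2.52 and 1.59 FPKM in pro-B libraries (0.67, SE 0.34), and the abundant granule gene Nkg7 at 324 to 1284 FPKM and 357 to 919 FPKM (0.14). The sum of the T and NK cell list, 0.0675% to 0.170% and 0.0702% to 0.145% of FPKM, overlapped, and its part in these differences was not tested.

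A microRNA locus was the higher gene with the lowest p. Mir451b (chr11:78073170-78073241, minus strand) was at 0.611, 1.17, 0.556 and 0 FPKM in the pre-pro-B libraries and at 4.28, 4.79 and 4.20 FPKM in the pro-B libraries, a difference of 1.88 (SE 0.33, adjusted p = 0.358). All pro-B values were above all pre-pro-B values in both genotypes. Without Lf-/- pre-pro-B replicate 2 the difference was 1.66 and it was the 1 gene outside the immunoglobulins with an adjusted p under 0.05. The mature sequence from RefSeq on GRCm38.p6 (chr11:78073219-78073239, minus strand) is shown with its seed, bases 2 to 8, in capitals.
mmu-miR-451b: uGGGAGCAgcaagagaaccgu
Mir451a, the abundant microRNA of erythroid cells, occupies the same coordinates on the plus strand and was at 0 to 2.92 FPKM and 1.23 to 4.67 FPKM (1.12, SE 0.53). The strand setting of the counting is not stated, so reads of the 2 genes cannot be told apart, and the values are those of a locus of hairpin length in RNA libraries and not of the mature microRNA. No erythroid gene of 13 tested passed, and the hemoglobin gene Hba-a1 was at 6598 to 45060 FPKM and 17151 to 31445 FPKM.

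Acod1, which makes itaconate in activated myeloid cells, was at 0 to 2.21 FPKM and 2.59 to 7.98 FPKM (1.73, SE 0.48, and 1.47 without Lf-/- pre-pro-B replicate 2), and Stfa1, a cysteine protease inhibitor of neutrophils, at 0 to 2.78 FPKM and 3.06 to 11.2 FPKM (1.63, SE 0.58, and 0.93 without it). The unnamed model Gm5483 in the same stefin cluster on chromosome 16 differed by 2.76 (SE 0.74, and 2.13 without it), and Gm45552 and Gm22933 by 1.49 and 1.46 (1.14 and 1.32 without it). Gm45552 and Gm22933 were under 1 FPKM in every pre-pro-B library, so they met the filter only through pro-B libraries. Stfa1 did not pass when either Lf-/- pro-B library was left out. Stefins are close copies, so their separate values are uncertain. In all, 62 genes passed as higher and did not overlap, 39 with gene names and 23 models, and 49 passed as lower and did not overlap, 23 with gene names, 25 immunoglobulin segments and 1 model.

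Genes of mature neutrophils leaned to higher values in the pro-B libraries. All 17 had positive differences with a median of 0.69, but 2 passed. Retnlg, a secreted resistin-like protein, was at 1070, 2680, 669 and 1403 FPKM in pre-pro-B and 2269, 10205 and 3914 FPKM in pro-B libraries (1.79, SE 0.61, and 1.83 without Lf-/- pre-pro-B replicate 2), with the highest value in Lf-/- pro-B replicate 1. Stfa2l1 was at 0 to 6.06 FPKM and 3.55 to 28.2 FPKM (2.25, SE 0.78, and 1.46 without Lf-/- pre-pro-B replicate 2). Without Lf-/- pro-B replicate 1 neither passed, at 1.22 and 1.72. In WT alone 9 of the 17 were negative and the median was -0.01, against 80.4% negative and a median of -0.28 over all genes tested. Genes of specific and gelatinase granules (14 tested, median 0.10) and of azurophil granules (7 tested, median -0.20) had no member that passed, and Cebpb was the member of 10 granulocyte factors that did (0.85, SE 0.33, and 1.06 without Lf-/- pre-pro-B replicate 2), though not in 4 of the 7 fits without a library.

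Prss34, Mcpt8 and Fcer1a, genes of basophils and mast cells, passed as higher and had their highest values in the 2 Lf-/- pro-B libraries. Prss34, a basophil and mast cell protease, was at 346 and 248 FPKM in WT and 158 and 120 FPKM in Lf-/- pre-pro-B libraries, and at 312 FPKM in WT pro-B and 2095 and 1536 FPKM in Lf-/- pro-B libraries. The stage difference was 2.25 (SE 0.66), with 3.69 in Lf-/- alone and 0.09 in WT alone. Mcpt8, the basophil protease, was at 211, 193, 85.9 and 56.7 FPKM and at 164, 855 and 580 FPKM (1.87, SE 0.66), with 3.32 in Lf-/- and -0.29 in WT. Fcer1a, the alpha chain of the IgE receptor, was at 10.6 to 22.2 FPKM and 14.6, 73.0 and 79.2 FPKM (1.28, SE 0.55). Without Lf-/- pre-pro-B replicate 2 the stage differences were 1.79 for Prss34, 1.36 for Mcpt8 and 1.17 for Fcer1a, and Fcer1a no longer passed. Prss34 passed in all 7 fits without a library, Mcpt8 did not in 3 and Fcer1a not in 4. Ms4a2, the beta chain of the same receptor, was under the filter, at 0 to 0.729 FPKM in pre-pro-B and 0.279, 1.27 and 0.654 FPKM in pro-B libraries. The eosinophil granule gene Prg2 was at 847 to 3242 FPKM and 332 to 2109 FPKM (-0.47, SE 0.57). Of 9 genes of the eosinophil, basophil and mast cell list 3 (33.3%) passed as higher, and 5 had negative differences.

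Whether the stage difference itself differed between the genotypes was tested by the interaction of stage and genotype. No gene had an adjusted p under 0.05, and 296 (2.74%) had an unadjusted p under 0.05. Of these, 273 (92.2%) had a positive interaction, a difference more positive in Lf-/- than in WT. A positive interaction does not mean that the larger change was in Lf-/-, as Malat1 differed by -3.88 in WT and 1.01 in Lf-/-. The median interaction over all genes was 0.45. It fell to 0.07 when libraries were scaled by median ratios, where 139 genes passed, 70.5% of them positive. After quantile normalization 215 passed, 56.7% of them positive. Prss34 (interaction 3.60), Mcpt8 (3.61) and Fcer1a (2.79) passed under all 3 scalings, as did Cpa3, a mast cell carboxypeptidase (3.26), which was named after its values were seen because it is the last of 4 members that passed. Each had an adjusted p = 0.99 in limma. Of 14 T and NK cell genes 6 passed without rescaling, 2 with median ratios and 3 with quantile normalization. Of the immunoglobulin genes 16 of 201 variable segments passed, and the interaction of Ighv1-9 was 0.93 and that of Igha 0.58, neither of which passed. The interaction rests on a single WT pro-B library, whose spread is taken from the other groups.

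**Figure D4:**
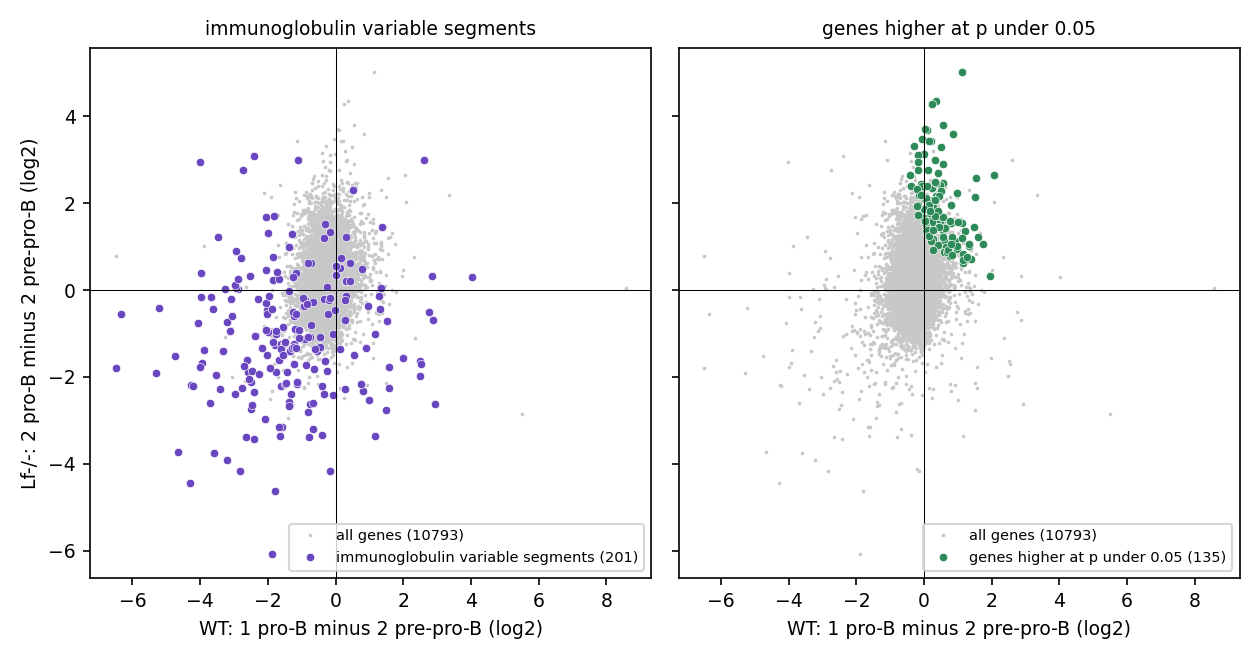
Pro-B minus pre-pro-B difference of each gene tested in WT (x axis, 1 against 2 libraries) and in Lf-/- (y axis, 2 against 2 libraries), both in log2 of FPKM + 1, with the 201 variable segments colored on the left and the 135 genes that passed as higher on the right. Most variable segments lie at the lower left, with 154 below 0 in Lf-/- and 160 below 0 in WT. The sign was the same in both, in either direction, for 141. The higher genes spread further along the Lf-/- axis, with a median of 1.58, than along the WT axis, with a median of 0.37.

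In Lf-/- libraries alone, 2 against 2, no gene had an adjusted p under 0.05 in limma and 364 (3.37%) had an unadjusted p under 0.05, 294 higher (80.8%) and 70 lower. The split toward higher values depended on the scaling, with 68.9% of 283 genes higher after median-ratio scaling and 57.1% of 338 after quantile normalization. All 260 genes that passed in the stage comparison had the same sign in Lf-/- alone, as did 83.9% of all genes tested. The Lf-/- libraries are 4 of the 7 that the stage term was fitted on, so this count is not independent of it.

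The WT difference shares no library with the Lf-/- difference but has 1 pro-B library and no test. Most genes were lower in the WT pro-B library, 80.4% of those tested, with a median of -0.28, and WT values were therefore read against that median. Of the 50 immunoglobulin genes that passed as lower in Lf-/- alone, 39 lay below it in WT and 28 (56.0%) were below -1, as were 379 (3.51%) of all genes tested. Their median in WT was -1.39. Of the 201 variable segments 150 (74.6%) were below the median in WT and 121 (60.2%) below -1. The 294 genes that passed as higher in Lf-/- were less shared. In WT 191 lay above the median of all genes, 105 (35.7%) were above 0 and 6 (2.04%) above 1, against 0.889% of all genes, and their median was -0.18. Lower immunoglobulin levels in pro-B libraries were thus seen in both genotypes, and most of the higher genes had values near those of other genes in WT.

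**Figure D5:**
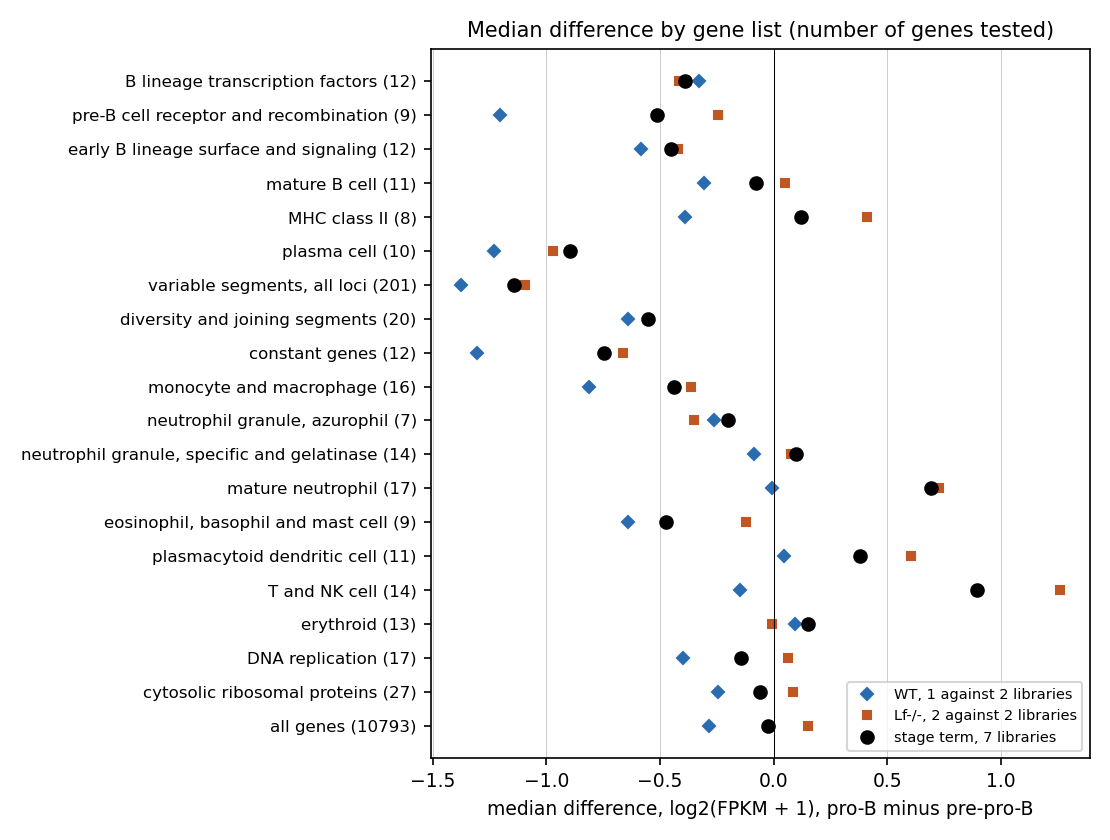
Median pro-B minus pre-pro-B difference (log2 of FPKM + 1) of each gene list (x axis) in the fit to all 7 libraries (circles), in Lf-/- alone (squares) and in WT alone (diamonds), with the number of genes tested beside each name. The variable segments have the lowest medians in all 3, at -1.14, -1.09 and -1.37. The T and NK cell list is at 0.90, 1.26 and -0.15, and all genes tested are at -0.03, 0.15 and -0.28.

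Lists of general cell state were close to the median of all genes. None of the 17 DNA replication genes, 17 mitosis genes and 27 ribosomal protein genes passed, with medians of -0.14, -0.15 and -0.06. Immediate early genes (17 tested, median 0.05), interferon-stimulated genes (13 tested, 0.27), glycolysis genes (14 tested, -0.02) and mitochondrially encoded genes (13 tested, -0.27) had no member that passed either. In the NF-kB list the chemokine genes Cxcl2 (1.18, SE 0.47) and Ccl4 (1.11, SE 0.44) passed as higher, and these did not pass in 4 and 3 of the 7 fits without a library. Megakaryocyte and platelet genes (6 tested, median -0.12), nuclear long noncoding RNAs (5 tested, -0.14) and stromal and endothelial genes (2 of 10 above the filter, -0.10) had none. A p above the threshold does not show that these genes were equal in the 2 groups.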

How the data were processed

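RNA of both cell stages, isolated from the marrow of WT or Lf-/- mice, was extracted with a kit that keeps small RNA and was sequenced on a NovaSeq instrument. Per the labels the authors used TopHat, Cufflinks, HTSeq and DESeq with GRCm38, with versions and strand setting not given in the sources used here. The deposited values are FPKM, 1 table per library, a unit read from the values, since low values step as whole fragments over gene length. Depth was 10800000 to 15300000 fragments in 6 libraries and is unknown in Lf-/- pre-pro-B replicate 2. No 2 libraries were identical. Of 52550 Ensembl IDs 52403 matched GENCODE M21, and where IDs shared a symbol the lowest-numbered kept it.

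The 10793 genes reaching 1 FPKM in 2 or more of the 7 libraries were tested in R 4.3.3 with limma 3.58.1 (mean-variance trend, two-sided, Benjamini-Hochberg adjustment over these genes) on log2(FPKM + 1) with stage and genotype as terms. The same scale served Lf-/- alone and the interaction, and WT alone gave values only. Groups overlapped unless all pro-B values lay on 1 side of all pre-pro-B values. The study's methods give 3 mice for each group but not how they were divided among libraries, so p-values measure only the spread between these samples, which may be technical. Named genes were those of the gates and of the study's regulators, the 10 largest differences in each direction among genes that passed without overlap (segments and unnamed models apart, 3 each), the 5 lowest p values, and for each list the 3 lowest p values and the most abundant member. 1 gene of the gates is not reported here. Relatives of segments, partner genes and defining markers were added. The comparison, the lists and the rule were chosen with earlier results of these data known, so list counts are descriptions. Variable segments were aligned with blastn 2.17.0, counting alignments of at least 250 bases. Scripts ran in Python 3.11.15 and were tested on simulated data. Alternatives were other scalings, filters and pseudocounts, no genotype term, a replicate block and leaving out each library.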

Additional observations from a re-analysis of the deposited data

Results flagged for a closer look

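In the group of 4 pre-pro-B libraries, 7 of 75 values tested had a single library separated from the rest by more than Dixon's 95% critical value for 4 samples. Chance gives about 1 in 20 for independent values of 1 population. These values include genes named for their stage difference and lists that share genes, and the libraries mix both genotypes, so that rate does not apply directly. In all 7 the library was Lf-/- pre-pro-B replicate 2. It had the highest level of Bcl11a, a transcription factor of lymphoid progenitors, at 3.31 FPKM. It was listed at 0 FPKM for Ctsw and at 0 FPKM for Stfa1. Genes of specific and gelatinase granules of neutrophils made up 9.80% of its FPKM and genes of mature neutrophils 14.9%, each the lowest of the 4. Plasmacytoid dendritic cell genes made up 0.0655% and interferon-stimulated genes 0.0261%. This is the library with 12172 genes above 0.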

How the results depend on the processing

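Several settings moved the counts. For the stage term, genes with an adjusted p under 0.05 (1 as reported) numbered 0 with quantile normalization, with no filter, with a pseudocount of 0.1 and with stage only, 6 with at least 1 FPKM in every library and 0 to 36 when a library was left out. Genes with an unadjusted p under 0.05 (260) numbered 626 with no filter, 156 with at least 1 FPKM in every library and 149 to 1777 when a library was left out, and lower genes among them (125) 77 to 1475. The highest of these came without Lf-/- pre-pro-B replicate 1 and the 36 without Lf-/- pre-pro-B replicate 2. In Lf-/- alone the adjusted count (0) was 0 to 1854 and the unadjusted count (364) 146 to 4180 with a library left out, which leaves 1 residual degree of freedom and a lone library assumed to vary like its counterpart, and the latter was 1036 with no filter, 132 with the strict filter and 198 with a pseudocount of 0.1. For the interaction, the adjusted count (0) was 122 with no filter and 0 to 523 with a library left out, and the unadjusted count (296) was 139 with median-ratio scaling, 1608 with no filter, 152 with the strict filter, 195 with a pseudocount of 0.1 and 104 to 2947 with a library left out. The cause was not tested. Labels share numbers, but same-numbered Lf-/- libraries did not deviate together (r = -0.01 over 10793 genes). With the replicate block the stage term gave 8 adjusted and 403 unadjusted calls, Lf-/- alone 87 and 710, and the interaction over WT1, KO1 and KO2 gave 29 adjusted calls.

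Signs reversed for genes that did not pass. With a library left out the difference ran from -0.34 to 0.020 for Ptprc (positive without WT pro-B replicate 1), from -0.13 to 0.11 for Spn (positive without Lf-/- pre-pro-B replicate 2 or Lf-/- pro-B replicate 1), from -0.061 to 0.34 for Ltf (negative without Lf-/- pro-B replicate 1 or Lf-/- pre-pro-B replicate 1), from -0.47 to 0.0050 for Tcf3 (positive without Lf-/- pro-B replicate 2) and from -0.21 to 0.16 for Spi1 (positive without Lf-/- pre-pro-B replicate 2, Lf-/- pro-B replicate 1 or WT pro-B replicate 1). With stage only it was -0.59 for Ltf and 0.0086 for the stage term of Spi1, with median-ratio scaling 0.069 for Spn and 0.097 for Spi1, and with quantile normalization 0.10 for Spn and 0.15 for Spi1. Over 41 named genes and 556 settings, 512 kept direction and side of the threshold, 26 lost it and 3 gained it. C1qa, C1qb and C1qc passed as lower in all 14 alternatives. With no counts and unknown depth in 1 library, absence of low transcripts cannot be read from a 0.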
